A study of Mus musculus with 3 samples.

Results

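The genes described here are 9 that mark or regulate hematopoietic stem cells and early progenitors: the receptor genes Kit and Flt3, the surface protein gene Cd34, the homeobox genes Hoxa7, Hoxa9, Hoxa10 and Meis1, and the transcription factor genes Hlf and Sox4. They were taken by name, and all 9 were found among the 24421 gene symbols measured. RNA sequencing was done on granulocyte progenitors, the bone marrow cells committed to making granulocytes, which had been sorted by flow cytometry from female mice. There were 3 libraries, 1 per group. The control library (NTB) came from mice without a tumor, and the 4T1-TB library came from mice carrying 4T1 mammary tumor cells placed at the orthotopic site. Both used F1 semi-syngeneic mice of H-2b/d haplotype. The third library came from mice deficient in IRF8, a transcription factor that favors the monocyte and dendritic lineages over neutrophils, and these mice were C57BL/6 of H-2b haplotype. Strain and genotype therefore cannot be told apart in any comparison with the IRF8-deficient library. The sources used here do not give the age of the mice, the number pooled per library, the Irf8 allele or the surface markers of the sort. If KIT or CD34 belonged to the sort gate, their RNA level could be set partly by the gate, and this was not tested.

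Early hematopoietic progenitors carry the receptor tyrosine kinases KIT, which binds stem cell factor, and FLT3, which binds FLT3 ligand, and both send survival and growth signals through PI3K, RAS and STAT5. The posterior HOXA proteins bind DNA together with the TALE homeodomain proteins of the MEIS and PBX families, and they sustain the self-renewal and expansion of immature cells. Genes of this kind are generally highest in stem and multipotent progenitors and are turned down as granulocyte precursors mature, while granule protein genes are turned on.

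Levels are given as deposited, in RPKM, which is reads per kilobase of gene model and per fixed unit of library size, so levels of different genes can be compared per length. The libraries held 42007169 recovered reads in NTB and 23225137 in 4T1-TB, and 35610932 in IRF8-deficient. Ribosomal RNA precursor Rn45s took from 1.81% to 13.9% of the reads, lowest in NTB and highest in IRF8-deficient, and the 20 highest genes took from 10.2% to 29.7% in the same order. Intervals after a level or fold are exact 95% intervals for counting error only, because with 1 library per group there was no spread between replicates and no statistical test. Irf8 itself stood at an RPKM of 43.8 in NTB and 8.60 in 4T1-TB, beside 13.7 in IRF8-deficient, so the library labelled IRF8-deficient held less Irf8 RNA than NTB but more than 4T1-TB. The deposited values are gene totals, so whether the reads of the IRF8-deficient library fell outside a deleted part of the gene could not be seen. The granulocyte precursor genes Mpo and Elane were abundant in every library, at 6811, 6749 and 4012 and at 4411, 4332 and 2889 in the same order. Libraries were compared on log2(RPKM + 1), a scale that understates how far low genes differ, and the genes compared were the 10658 that reached an RPKM of 1 in any library. A gene was called higher or lower when that difference reached 1 in size, which is 2-fold on this scale.

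In short, Cd34, Sox4 and Meis1 had their highest level in NTB and their lowest in IRF8-deficient, with 4T1-TB between them. Flt3, at 1.28, 0.924 and 0.429 in NTB, 4T1-TB and IRF8-deficient, had the same order but was not called. So had Hoxa7, which was not compared and whose 4T1-TB level could not be separated from NTB. Hoxa9 followed another order, highest in 4T1-TB and lowest in IRF8-deficient. Kit stayed within a 1.53-fold range over the libraries as the authors scaled them. The promoters of the first 3 and of Hoxa9 are shown because these genes carried the calls. Each is the 300-base window from 250 bases before to 50 bases after the transcription start, from RefSeq on GRCm38.p6 (mm10), read 5′ to 3′ on the gene's own strand, with matches to the motifs named below in capitals. The Cd34 window is chr1:194938571-194938870 on the plus strand, the Sox4 window chr13:28953650-28953949 on the minus strand, the Meis1 window chr11:19018920-19019219 on the minus strand, and the Hoxa9 window chr6:52227321-52227620 on the minus strand.
Cd34: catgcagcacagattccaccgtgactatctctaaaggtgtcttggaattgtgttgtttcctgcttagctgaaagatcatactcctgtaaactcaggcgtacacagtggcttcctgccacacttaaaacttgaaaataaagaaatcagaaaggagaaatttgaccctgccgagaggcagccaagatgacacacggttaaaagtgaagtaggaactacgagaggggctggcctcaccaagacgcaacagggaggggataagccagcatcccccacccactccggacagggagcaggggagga
Sox4: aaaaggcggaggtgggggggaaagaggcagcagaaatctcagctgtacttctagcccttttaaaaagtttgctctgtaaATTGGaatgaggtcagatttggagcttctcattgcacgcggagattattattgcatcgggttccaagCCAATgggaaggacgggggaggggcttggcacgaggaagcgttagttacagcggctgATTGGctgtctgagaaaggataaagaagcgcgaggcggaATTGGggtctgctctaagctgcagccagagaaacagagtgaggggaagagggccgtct
Meis1: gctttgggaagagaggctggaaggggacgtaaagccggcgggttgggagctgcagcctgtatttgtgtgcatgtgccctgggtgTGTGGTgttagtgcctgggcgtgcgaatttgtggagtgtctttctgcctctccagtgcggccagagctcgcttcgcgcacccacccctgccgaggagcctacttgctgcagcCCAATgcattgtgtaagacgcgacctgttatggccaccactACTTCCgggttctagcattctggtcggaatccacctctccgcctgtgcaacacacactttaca
Hoxa9: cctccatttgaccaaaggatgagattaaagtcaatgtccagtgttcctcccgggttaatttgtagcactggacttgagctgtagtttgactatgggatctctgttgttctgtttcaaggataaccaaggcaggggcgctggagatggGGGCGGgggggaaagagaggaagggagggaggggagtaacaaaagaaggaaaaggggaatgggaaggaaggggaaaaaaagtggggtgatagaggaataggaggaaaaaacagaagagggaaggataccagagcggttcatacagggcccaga

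A RefSeq promoter window was matched for all 9 genes, with 1 start site each except for Kit and Hoxa10, whose windows were all searched. The windows of Hoxa7 and Hoxa9 lie inside the GENCODE spans given below and not at their 5′ ends. Letters were searched on both strands, and shares refer to all 32851 promoter windows of the same length. The ETS-IRF composite element GGAANNGAAA, through which IRF8 binds with PU.1, was in 2.72% of all windows and in 0 of the 9 genes. The interferon response core GAAANNGAAA, which shares its last letters with the composite element, was in 3.44% of all windows and again in 0 of the 9. The HOX-PBX letters TGATNNAT (8.85% of all windows), the MEIS letters TGACAG (19.2%), the GATA letters AGATAA (11.2%) and the PAR bZIP letters TTANNTAA (6.00%), the last bound by HLF, were likewise absent from the windows of the 9 genes. Absence of these letters says nothing of the factors, which can act at other places or on other letters.

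Among motifs that were found, the RUNX letters TGTGGT lay in the Meis1 window only, at -166 from the start site, and are in 16.8% of all windows. The ETS letters GGAAGT, in 23.8% of all windows, matched in Meis1, at -13, and in Flt3 and Hoxa10. The GC box GGGCGG (35.7% of all windows) matched in Hoxa9, at -103, and in Kit, Hlf and Hoxa10. The CCAAT box (37.4% of all windows) matched 4 times in Sox4, at -171, -104, -47 and -8, once in Meis1, at -54, and once in Hoxa10. The MYB letters AACTG (44.8%) matched in Flt3, Hoxa7 and Hoxa10, and the C/EBP letters TTGCNNAA (10.8%) in Hoxa10. The Cd34 window held no match to any motif searched.

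**Figure D1:**
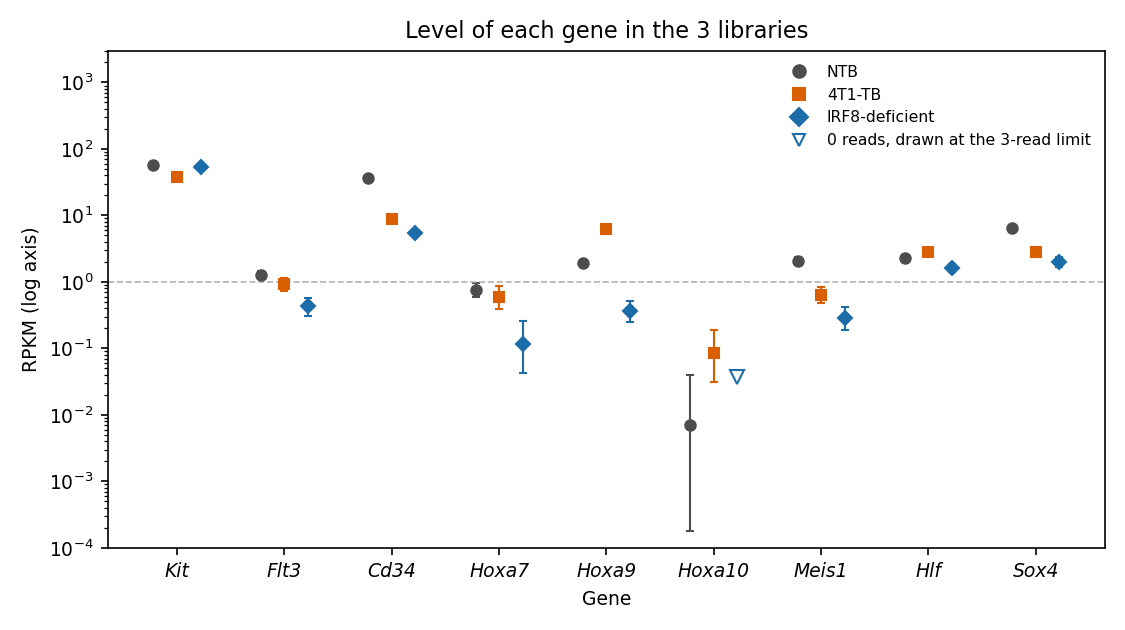
Level of each of the 9 genes in the 3 libraries, as RPKM on a log axis, with exact 95% Poisson intervals for counting error; the dashed line is an RPKM of 1 and the open triangle stands for 0 reads. Kit stays near the top in all 3 libraries, Cd34 is at 36.9, 8.73 and 5.41, Hoxa9 is highest in 4T1-TB at 6.29, and Hoxa10 is near 0 throughout.

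Kit, the gene for the stem cell factor receptor, was the highest of the 9 in every library, with an RPKM of 57.2 in NTB and 37.5 in 4T1-TB, and 53.2 in IRF8-deficient. It lies on chr5:75574916-75656722 on the plus strand (mm10, GENCODE M21). These levels rested on 13274, 4315 and 7193 reads. Kit was thus expressed above most genes everywhere: 90.2% of compared genes were lower in NTB and 81.9% in 4T1-TB, and 87.5% in IRF8-deficient. Its level in 4T1-TB was 1.53-fold lower than in NTB (interval 1.47 to 1.58), and in IRF8-deficient 1.08-fold lower (1.05 to 1.11). Neither difference reached the 2-fold size, and the second was the smallest of the 7 compared genes in that comparison.

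Flt3, the gene for the FLT3 ligand receptor and a marker of multipotent and lymphoid-primed progenitors and of dendritic precursors, was low in every library. It lies on chr5:147330741-147400489 on the minus strand. Its RPKM was 1.28 in NTB and 0.924 in 4T1-TB, and 0.429 in IRF8-deficient, from 209, 75 and 41 reads. The level in IRF8-deficient was 2.97-fold lower than in NTB (interval 2.12 to 4.26), but on log2(RPKM + 1) the difference was -0.67 and was not called. In 4T1-TB the level was 1.38-fold lower than in NTB (1.06 to 1.82). Kit exceeded Flt3 44.8-fold in NTB, 40.6-fold in 4T1-TB and 124-fold in IRF8-deficient, so the balance of the receptor genes was alike in the first pair of libraries and leaned further to Kit in the last.

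Cd34, which encodes a sialomucin on stem cells, early progenitors and blood vessel endothelium, had the largest differences of the 9 genes from NTB on log2(RPKM + 1), though Meis1, a lower gene, had the larger fold in IRF8-deficient. It lies on chr1:194938819-194961279 on the plus strand, starting inside the promoter window shown. Its RPKM was 36.9 in NTB (interval 35.8 to 38.0) and 8.73 in 4T1-TB (7.99 to 9.52), with 5.41 in IRF8-deficient (4.87 to 5.99), and none of these intervals overlapped. Cd34 was 4.23-fold lower in 4T1-TB than in NTB (3.86 to 4.64), a difference of -1.96 on log2(RPKM + 1), and only 6 of the compared genes had a more negative difference. It was 6.83-fold lower in IRF8-deficient than in NTB (6.14 to 7.61), a difference of -2.56, with 16 genes more negative. Between IRF8-deficient and 4T1-TB the level was 1.61-fold lower (1.41 to 1.85), which was not called.

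Kit and Cd34 therefore parted. Kit RNA exceeded Cd34 RNA 1.55-fold in NTB (interval 1.498 to 1.605) and 4.30-fold in 4T1-TB (3.92 to 4.72), with 9.83-fold in IRF8-deficient (8.86 to 10.9). A ratio of 2 genes within a library does not depend on how that library was scaled. The ratio in 4T1-TB was 2.77 times that in NTB (2.51 to 3.06), and that in IRF8-deficient was 6.34 times that in NTB (5.68 to 7.10).

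An antisense gene, Gm16897, overlaps Cd34 and was at an RPKM of 0.0179 in NTB and 0.289 in 4T1-TB, beside 0.0461 in IRF8-deficient. The sources used here do not say whether the counting used strand, so reads of Cd34 and of this gene may not be separable, though the antisense level was far below that of Cd34 in each library. The overlapping antisense gene of Hoxa7, Hoxaas3, was at 0.0539 in 4T1-TB and listed at 0 in the other libraries, and Mir196b, inside Hoxa9, was listed at 0 in all 3.

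Hoxa9, a homeobox gene of immature myeloid cells, was alone among the 9 genes in being called higher in any comparison. It lies on chr6:52223100-52231089 on the minus strand, a span that holds the promoter window shown, so its GENCODE 5′ end was not searched. Its RPKM was 1.90 in NTB (interval 1.68 to 2.14) and 6.29 in 4T1-TB (5.72 to 6.90), with 0.368 in IRF8-deficient (0.2498 to 0.522), from 275, 451 and 31 reads. The 4T1-TB library stood highest, the IRF8-deficient library lowest, and no intervals overlapped. Hoxa9 was 3.31-fold higher in 4T1-TB than in NTB (2.84 to 3.86), a difference of 1.33, with 106 genes more positive. It was 5.17-fold lower in IRF8-deficient than in NTB (3.56 to 7.76), a difference of -1.09. There 482 genes were more negative, and the difference lay inside the central 95% of compared genes. Against 4T1-TB the IRF8-deficient level was 17.1-fold lower (11.9 to 25.5), a difference of -2.41 with 26 genes more negative.

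Meis1, whose TALE homeodomain protein binds DNA beside HOXA9, took a different order. It lies on chr11:18879817-19018985 on the minus strand. Its RPKM was 2.09 in NTB and 0.641 in 4T1-TB, and 0.289 in IRF8-deficient, from 322, 49 and 26 reads. It was 3.26-fold lower in 4T1-TB than in NTB (interval 2.41 to 4.50). That difference, -0.91 on log2(RPKM + 1), was just short of a call, with 179 genes more negative. In IRF8-deficient Meis1 was 7.22-fold lower than in NTB (4.84 to 11.2), at -1.26. There 276 genes were more negative, and the difference lay inside the central 95% of compared genes. The ratio of Hoxa9 to Meis1 was 0.910 in NTB (0.772 to 1.07) and 9.81 in 4T1-TB (7.29 to 13.5), with 1.27 in IRF8-deficient (0.730 to 2.23). The ratio in 4T1-TB was 10.8 times that in NTB (7.63 to 15.4), while the interval of the same change in IRF8-deficient (0.780 to 2.51) included no change.

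Hoxa7 and Hoxa10, the neighbors of Hoxa9 in the cluster, did not reach an RPKM of 1 in any library and were not among the genes compared. Hoxa7 (chr6:52214491-52221854, minus strand) was at 0.767 in NTB and 0.6001 in 4T1-TB, and 0.118 in IRF8-deficient, from 67, 26 and 6 reads. Its 4T1-TB level was 1.28-fold below NTB with an interval from 0.801 to 2.09 that included no difference, and its IRF8-deficient level was 6.51-fold below NTB (2.84 to 18.4). Hoxa10 (chr6:52231197-52240854, minus strand) had 1 read in NTB and 6 in 4T1-TB, and 0 in IRF8-deficient, and 0 reads allow an RPKM of up to 0.045 by the exact interval, or 0.0366 at the floor of 3 reads drawn in the plot of levels. The 4T1-TB level of 0.086 was 12.1 times the NTB level of 0.0071, with a counting interval from 1.47 to 557 that spans most sizes. Hoxa9 exceeded Hoxa7 2.48-fold in NTB, 10.5-fold in 4T1-TB and 3.122-fold in IRF8-deficient, so within the cluster the 4T1-TB difference was unequal between neighbors (ratio of ratios 4.23, interval 2.57 to 7.09).

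**Figure D2:**
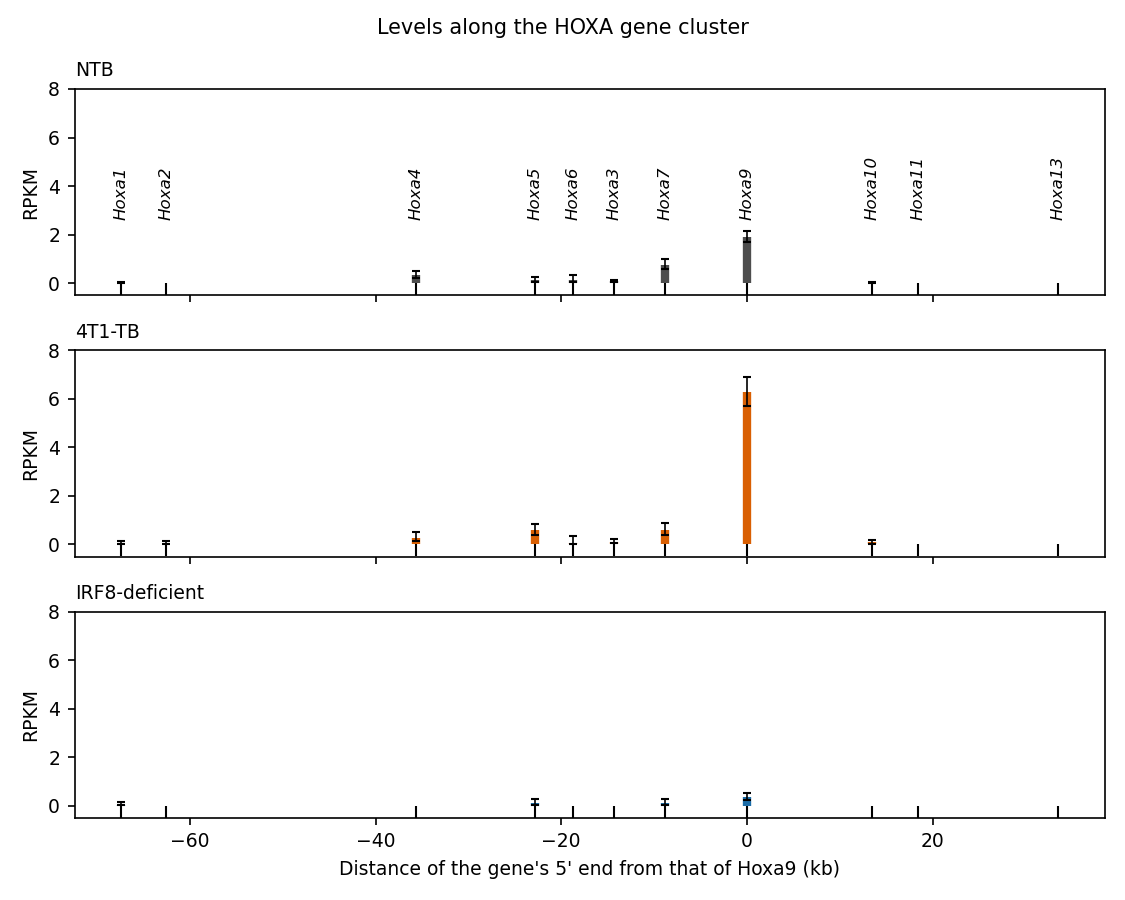
RPKM of the 11 HOXA genes in each library, placed by the distance in kb of each gene's RefSeq 5′ end from that of Hoxa9; bars are levels and whiskers exact 95% Poisson intervals, and genes without a bar are at or near 0. Hoxa9 is the tallest bar in every panel, at 1.90, 6.29 and 0.368. Hoxa3 is drawn at -14.3 kb, between Hoxa6 and Hoxa7, by the 5′ end of its RefSeq span, so places need not give the order of the gene bodies.

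The rest of the HOX family was nearly silent. Of 39 HOX symbols in the files, Hoxa9 and Hoxb4 were the only ones with an RPKM of 1 or more in NTB and 4T1-TB, and Hoxb4 alone in IRF8-deficient, while 26, 27 and 30 symbols were listed at 0. Hoxb4, a stem cell homeobox gene, stood at 2.73, 3.49 and 2.06 in NTB, 4T1-TB and IRF8-deficient. The summed RPKM of the HOXA genes was 3.34, 8.05 and 0.654, of which Hoxa9 made up 56.9%, 78.1% and 56.2%. Within the cluster Hoxa5 was also higher in 4T1-TB, at 0.131, 0.576 and 0.122, and its 4.40-fold excess over NTB (interval 2.08 to 9.95) rested on 24 reads against 11. Hoxa4 was at 0.321, 0.265 and 0, and Hoxa11 and Hoxa13 were listed at 0 in all 3 libraries.

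Hlf, a PAR bZIP transcription factor gene that is strongest in stem cells, was not called in any comparison. It lies on chr11:90336536-90390895 on the minus strand. Its RPKM was 2.32 in NTB and 2.79 in 4T1-TB, and 1.62 in IRF8-deficient, from 588, 351 and 239 reads. It was 1.204-fold higher in 4T1-TB than in NTB (interval 1.05 to 1.38) and 1.43-fold lower in IRF8-deficient (1.23 to 1.67), and neither was called. Hlf and Meis1 were level in NTB, with a ratio of 1.11 (0.967 to 1.27), but Hlf exceeded Meis1 4.35-fold in 4T1-TB and 5.58-fold in IRF8-deficient.

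Sox4, an SRY-box transcription factor gene of progenitors, was lower than in NTB in both other libraries. It lies on chr13:28948919-28953713 on the minus strand. The gene length implied by its deposited RPKM, 2953 bases, has no match in the reference, whose transcript has 4795 bases, so its reads, its intervals and its level set beside other genes are less certain. Its RPKM was 6.52 in NTB (interval 6.10 to 6.97) and 2.78 in 4T1-TB (2.39 to 3.21), with 2.00 in IRF8-deficient (1.69 to 2.34). It was 2.35-fold lower in 4T1-TB than in NTB (2.00 to 2.77), at -0.995 on log2(RPKM + 1) the nearest of the 9 genes to the threshold without passing it. Only 147 compared genes were more negative there. In IRF8-deficient Sox4 was 3.27-fold lower than in NTB (2.75 to 3.904), at -1.33, with 209 genes more negative. The IRF8-deficient level was 1.39-fold below that of 4T1-TB (1.12 to 1.73), which was not called.

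**Figure D3:**
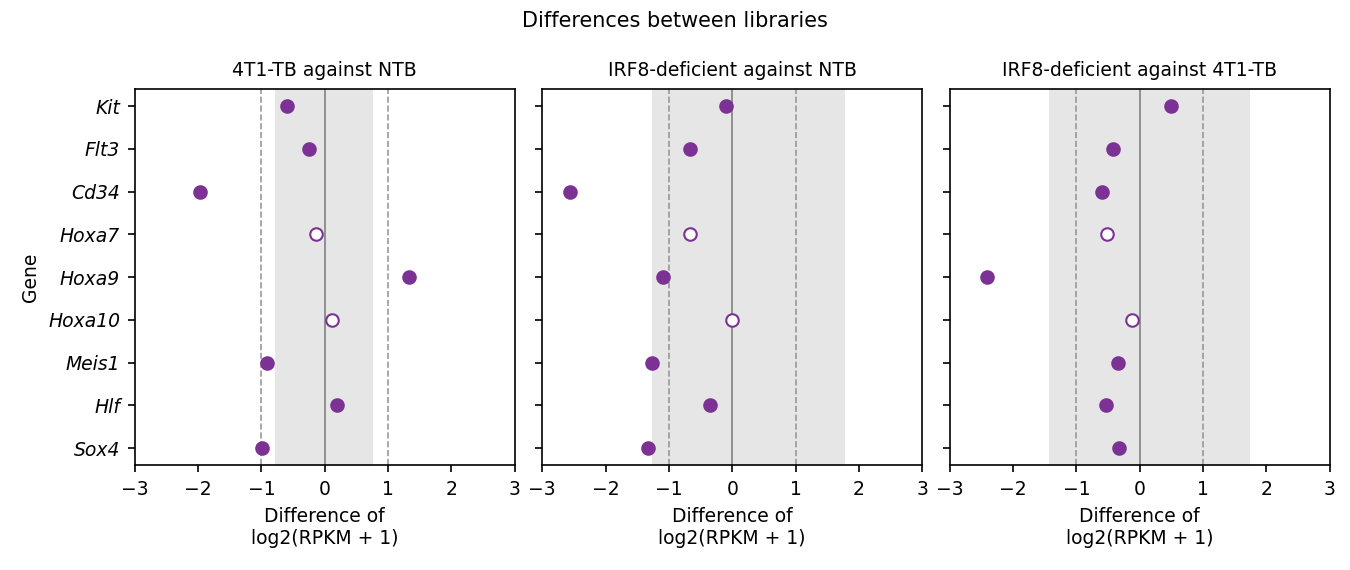
Difference of each gene on log2(RPKM + 1) in the 3 comparisons; filled points are genes compared, open points the pair under an RPKM of 1, dashed lines the size of 1 used for calls, and the grey band holds the central 95% of the 10658 compared genes. Cd34 at -1.96 and -2.56 and Hoxa9 at -2.41 lie furthest from 0.

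Counted over the list, 7 of the 9 genes passed the filter. Flt3 and Meis1 passed only through NTB, and Hoxa9 through NTB and 4T1-TB, so a lower level elsewhere was partly built into their entry and the counts below are descriptions. In 4T1-TB against NTB 1 gene was called higher (Hoxa9), where 1.67% of compared genes were, and 1 lower (Cd34), where 1.35% were. In IRF8-deficient against NTB 0 were higher, where 8.78% of compared genes were, and 4 were lower (Cd34, Sox4, Meis1 and Hoxa9), where 5.73% were. In IRF8-deficient against 4T1-TB 0 were higher against 8.83% of genes, and 1 was lower (Hoxa9) against 7.07%. The median difference of the 7 was -0.60, -1.09 and -0.43 in these comparisons, beside 0.01, -0.02 and 0.00 for all compared genes. The first pair of comparisons share the NTB library, and are not independent of each other.

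These whole-transcriptome shares depend on how a library is scaled. The deposited RPKM imply a library size 1.07 times the summed recovered reads in NTB and 0.956 times in 4T1-TB, but 0.733 times in IRF8-deficient. Scaled by summed reads instead, IRF8-deficient against NTB had 448 higher and 1881 lower genes, beside 936 and 611 as deposited, with a median over all genes of -0.50. In IRF8-deficient against 4T1-TB the split moved from 941 higher and 754 lower to 491 and 1492, and in 4T1-TB against NTB from 178 and 144 to 148 and 192. Leaving out the 20 highest genes of each library gave 724 higher and 934 lower in IRF8-deficient against NTB. Relative to the median shifted by summed reads, Cd34 was at -2.52, Sox4 at -1.19, Meis1 at -0.91 and Hoxa9 at -0.75 in IRF8-deficient against NTB. Kit under the same scaling went from -0.10 to -0.63 in IRF8-deficient against NTB, or -0.13 relative to the shifted median, and from -0.60 to -0.75 in 4T1-TB against NTB. The ratios of 2 genes within a library are untouched by this choice.

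**Figure D4:**
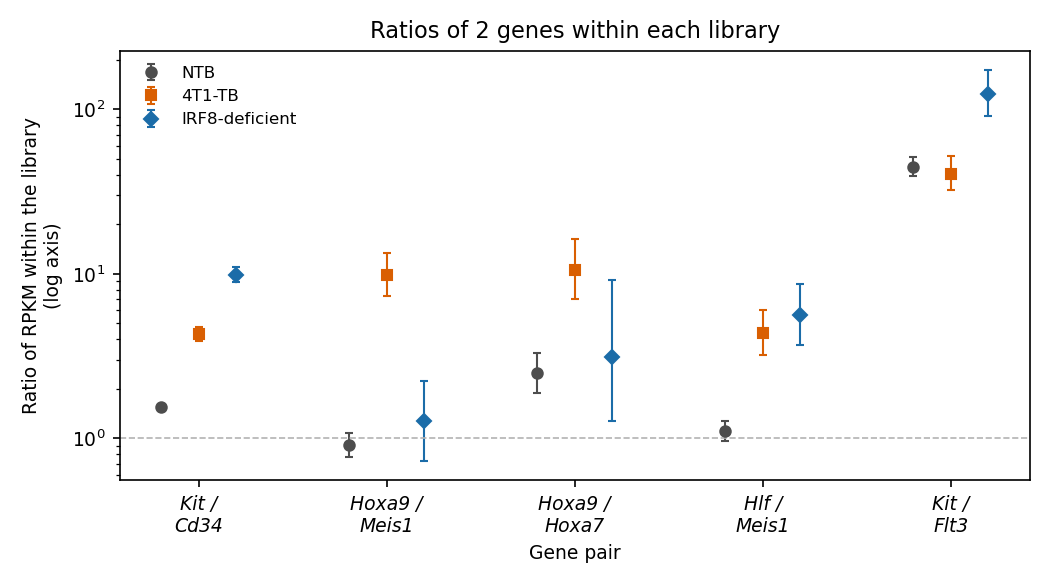
Ratio of the RPKM of 2 genes within the same library, on a log axis with exact 95% intervals for counting error; the dashed line marks equal levels. Kit over Cd34 goes from 1.55 to 4.30 and 9.83, and Hoxa9 over Meis1 reaches 9.81 in 4T1-TB beside 0.910 and 1.27 in the other libraries.

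The order of the 9 genes was Kit, Cd34, Sox4, Hlf, Meis1, Hoxa9, Flt3, Hoxa7 and Hoxa10 in NTB, where the neighbors Hlf and Meis1, and Meis1 and Hoxa9, did not differ beyond counting error. In 4T1-TB Hoxa9 moved up to the place after Cd34, and Hlf and Sox4, Flt3 and Meis1, and Meis1 and Hoxa7 could not be separated. In IRF8-deficient Kit, Cd34, Sox4 and Hlf kept their NTB order above Flt3, Hoxa9, Meis1 and Hoxa7, of which no neighbors could be separated. In bulk samples, fewer cells expressing a gene and less of its RNA per cell cannot be told apart, and this holds for every level given here.

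Other genes of hematopoietic stem cells did not share 1 direction. Of a list of 34, all in the files, 14 were compared, with 1 called higher and 0 lower in 4T1-TB against NTB, 2 higher and 2 lower in IRF8-deficient against NTB, and 1 higher and 2 lower in IRF8-deficient against 4T1-TB. The median differences were -0.05, -0.21 and -0.17. Ifitm1, an interferon-induced membrane protein gene, was at 1.28 in NTB and 73.7 in 4T1-TB, and 4.24 in IRF8-deficient, and its relative Ifitm3 at 19.4, 36.1 and 123. Cd27, a TNF receptor family gene, was at 7.18, 3.60 and 1.968, and the immediate early gene Egr1 at 3.00, 1.08 and 0.362. Bmi1, the Polycomb gene needed for stem cell self-renewal, was at 11.8, 11.5 and 10.6.

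Genes of the stem cell list below an RPKM of 1 were counted apart. Genes at such levels with at least 20 reads over the 3 libraries numbered 1702 in all, a minimum chosen after values were seen, and a gene was counted where the counting interval of its fold lay wholly on 1 side of no difference. Of the 9 stem cell genes among them, 6 were lower and 1 higher in 4T1-TB than in NTB, beside 36.1% lower and 10.3% higher over all such genes. In IRF8-deficient against NTB 7 were lower and 0 higher, beside 40.9% and 17.2%. NTB was the deepest library. For genes with most of their reads there, a lower level elsewhere was partly built into entry, so these counts are descriptions. Of the 9 genes that are the subject here, Hoxa7 alone lay in this range with enough reads, lower in IRF8-deficient and on neither side in 4T1-TB.

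Angpt1, the gene for a ligand of the TEK receptor, was among the lower genes, at an RPKM of 0.786 in NTB and 0.0417 in 4T1-TB, and 0.0266 in IRF8-deficient. Ikzf2, the Helios zinc finger gene, was at 0.870, 0.163 and 0.118, a 5.35-fold (interval 3.76 to 7.85) and 7.38-fold (5.05 to 11.2) lower level than in NTB. Gata2 and Mecom, transcription factor genes needed by stem cells, had 86 and 36 reads in NTB, 6 and 5 in 4T1-TB and 0 in IRF8-deficient. With library size taken into account, their 4T1-TB levels were 7.11-fold (interval 3.13 to 19.9) and 3.57-fold (1.40 to 11.7) below NTB. Vwf ran the other way in 4T1-TB, at 0.149, 0.367 and 0.0347.

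Genes of lymphoid-primed progenitors, the stage marked by FLT3, had 8 of 15 members compared. None was called in 4T1-TB against NTB (0 higher, 0 lower), 3 were higher and 1 lower in IRF8-deficient against NTB, and 3 were higher and 0 lower in IRF8-deficient against 4T1-TB, with medians of -0.22, 0.86 and 0.84. Cd52, a small surface glycoprotein gene, was at 83.8, 82.0 and 427 in NTB, 4T1-TB and IRF8-deficient, Notch1 at 10.3, 8.31 and 25.3, and the chromatin organizer Satb1 at 5.94, 4.14 and 14.2. Cd48, a SLAM family gene, was at 42.6, 28.3 and 19.1. Mef2c, at 9.34, 5.51 and 4.36, and Tcf4, at 4.72, 4.10 and 2.74, were not called.

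The TALE partners of HOX proteins had 6 of 10 members compared, with 0 called higher and 0 lower in 4T1-TB against NTB (median -0.11). In IRF8-deficient 1 was lower than in NTB, Tgif2, and 0 were lower than in 4T1-TB. This repressor gene was at 2.85, 1.68 and 0.687 in NTB, 4T1-TB and IRF8-deficient, its relative Tgif1 at 8.58, 5.05 and 4.70, and Pknox1 at 8.97, 8.81 and 13.9. Meis2 and Meis3 were listed at 0 in all 3 libraries. Of 24 other HOX genes, only Hoxb4 was compared, and it was called in 0 comparisons.

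Chromatin regulators of HOX loci, the MLL and Polycomb complexes with DOT1L and their partners, were all compared, 24 of 24, and showed medians near 0 (0.01, -0.03 and 0.07). None was called in 4T1-TB against NTB, and 1 was higher in each comparison with IRF8-deficient, Kdm6b, an H3K27 demethylase gene, at 2.72, 3.74 and 8.58. Kmt2a, the MLL gene itself, was at 13.4, 10.6 and 12.8. Mllt3 was at 1.73, 1.36 and 0.535, Mllt6 at 2.55, 0.997 and 1.12, and Ash2l at 23.3, 25.1 and 16.6.

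Genes described as targets of HOXA9 or MEIS1 had 13 of 15 members compared. In 4T1-TB against NTB 1 was higher and 2 lower, in IRF8-deficient against NTB 2 were higher and 3 lower, and in IRF8-deficient against 4T1-TB 2 were higher and 1 lower, with medians of -0.10, -0.27 and -0.33. The list includes Cd34, Flt3 and Sox4, so it is not separate from the genes above. Pim1, a serine kinase gene, was at 18.5, 90.9 and 17.1, highest where Hoxa9 was highest. Bcl2, the survival gene, was at 6.49, 1.65 and 2.07, Ccnd3, a cyclin D gene, at 41.9, 68.4 and 149, and Id2 at 13.8, 22.2 and 106. Myb, a progenitor transcription factor gene, was at 300.2, 239 and 167 and was not called.

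KIT and FLT3 signaling genes had 20 of 22 members compared, with 0 called in 4T1-TB against NTB and 2 higher and 1 lower in each comparison with IRF8-deficient (medians 0.01, 0.42 and 0.33). Ptpn6, the phosphatase gene that restrains KIT, was at 78.1, 89.9 and 186, and the SRC family kinase gene Lyn at 34.0, 37.2 and 82.5. Spred1, a RAS pathway inhibitor gene, was at 4.72, 3.20 and 1.75, and the adaptor gene Dok2 at 11.5, 15.1 and 6.71. The gene for the FLT3 ligand, Flt3l, was at 2.08, 1.68 and 3.95, and that for the KIT ligand, Kitl, was listed at 0 in all 3 libraries. Close relatives of the 9 genes had 4 of 16 members compared, with 0 higher and 1 lower in 4T1-TB against NTB and 1 higher and 0 lower in each comparison with IRF8-deficient (medians -0.56, -0.55 and 0.25). Csf1r, a receptor kinase gene of the KIT class, was at 24.6, 11.03 and 14.3, and Nfil3, a bZIP repressor gene related to Hlf, at 4.60, 8.002 and 17.1. The other PAR bZIP genes, Tef at 3.02, 1.64 and 1.29 and Dbp at 1.38, 0.671 and 0.867, were not called in any comparison.

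Genes of granulocyte stages differed in the same libraries. Of 12 early stage genes, 0 were called in 4T1-TB against NTB, 1 was higher and 2 lower in IRF8-deficient against NTB, and 1 was higher and 6 lower in IRF8-deficient against 4T1-TB, with medians of 0.22, -0.72 and -0.94. Ctsg, a primary granule protease gene, was at 2112, 3617 and 1077, and Prtn3, another, at 2992, 4585 and 1535, so both were highest in 4T1-TB, as Hoxa9 was. Myc was at 69.8, 76.6 and 25.7. Of 15 late stage genes, 7 were higher and 0 lower in 4T1-TB against NTB, 15 and 0 in IRF8-deficient against NTB, and 14 and 0 in IRF8-deficient against 4T1-TB, with medians of 0.85, 4.71 and 2.98. Ltf, the lactoferrin gene, was at 75.2, 65.0 and 4856, and Mmp9, a gelatinase gene, at 1.91, 29.8 and 149.

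Markers of other cells were summed beside these results. The 8 mature neutrophil markers summed to an RPKM of 23.1 in NTB and 323 in 4T1-TB, and 943 in IRF8-deficient, with none at 0 and 7 and 8 of 8 called higher than in NTB, in the order opposite to that of Cd34, Sox4 and Meis1. Their part in the lower levels of those genes was not tested. The 9 monocyte and macrophage markers summed to 265, 133 and 259, none at 0, with 5 lower in 4T1-TB and 1 higher and 2 lower in IRF8-deficient against NTB. The 10 dendritic cell markers, which include Flt3, summed to 23.2, 24.3 and 21.6, with Cd209a at 0 in all 3 and Siglech at 0 in 4T1-TB, and 0 were called. Most of these sums was Bst2, at 17.7, 20.4 and 12.6. The antigen presentation genes H2-Ab1 (2.43, 1.92 and 4.21), Cd74 (1.07, 0.923 and 2.598) and H2-Aa (0.480, 0.0842 and 1.07) stood highest in IRF8-deficient without being called. NTB and 4T1-TB were of H-2b/d haplotype and IRF8-deficient of H-2b, and the part of haplotype in the H2 gene levels was not tested. Clec9a, under an RPKM of 1 throughout, was 7.72-fold above NTB in IRF8-deficient (interval 3.84 to 17.2).

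Kit is also a marker of mast cells and Cd34 of endothelium. The 9 mast cell and basophil markers summed to 77.0, 60.7 and 64.3, mostly Kit itself and the basophil protease gene Mcpt8 at 15.7, 20.4 and 8.73. The mast cell protease genes Tpsb2 and Cma1 were at 0 in all 3 libraries and Cpa3 was at 0.691, 0 and 0.343. The 8 endothelial markers summed to 53.2, 18.9 and 13.7, mostly Cd34 and Pecam1, the latter at 11.98, 5.77 and 6.29, while the defining genes Cdh5 and Kdr were at 0.0224 and 0.0041 in NTB and at 0 in the other libraries.

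The remaining lists held at most 2 genes with an RPKM of 1 or more in a library. The 7 eosinophil markers summed to 17.3, 12.8 and 11.4, with 0, 2 and 1 at 0. Siglecf made up most of this, at 12.9, 12.1 and 9.86, while the granule protein gene Prg2, at 3.41, 0.484 and 0.640, was called lower in both comparisons with NTB, and Epx, at 0.407, 0.1004 and 0.0285, had counting intervals wholly below NTB in both. The 11 erythroid and megakaryocyte markers summed to 3.06, 1.39 and 3.67 with 2, 5 and 5 at 0. The platelet genes Gp1bb, at 0.246, 0.0864 and 1.45, and Gp9, at 0.661, 0.555 and 1.94, carried the IRF8-deficient sum. Gata1, Klf1, Car1 and Itga2b, each under an RPKM of 1, had counting intervals wholly below NTB in both other libraries. This was also the direction of Cd34, Sox4 and Meis1, and the part of erythroid and megakaryocyte cells in those results was not tested. Most reads of these low genes and of Epx were in NTB, so a lower level elsewhere was partly built into their entry. The 8 B lineage markers summed to 17.4, 12.9 and 13.2 with 1, 3 and 0 at 0. The 8 T and NK cell markers summed to 0.459, 0.594 and 0.704 with 4, 4 and 2 at 0, and the 8 stromal markers to 0.866, 0.443 and 0.928 with 5, 4 and 3 at 0.

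The genes whose pattern over the 3 libraries was most like that of each called gene were found by the Euclidean distance between log2(RPKM + 1) profiles, each centered on its own mean, among 7987 to 7988 genes that reached an RPKM of 5 in a library. With 3 points per profile, likeness is a description. Nearest to Cd34 were Ly86, at 0.24, then Apba1, at 0.30, and Eml5, at 0.35. Ly86, which encodes MD-1, a partner of a TLR-related receptor, and is also in the monocyte list, was at 20.3, 4.88 and 3.53. Only 1 gene lay within 0.25 of Cd34, beside 11 for Sox4, 25 for Meis1 and 2 for Hoxa9.

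Sox4 was itself the nearest gene to Meis1, at a distance of 0.06, followed by Usp11, at 0.12, and Kif17, at 0.14. This likeness is on log2(RPKM + 1), which compresses low genes. As a ratio, Meis1 over Sox4 in IRF8-deficient was 0.452 times that in NTB (interval 0.281 to 0.705), and in 4T1-TB 0.722 times (0.502 to 1.02). Meis1 never reached an RPKM of 5, so it was not a candidate for Sox4, although it lay nearer than any gene that was. Among the candidates Usp11 and Kif17 led for Sox4, at 0.15 each, before Il6st, the gp130 cytokine receptor gene, at 0.19. Usp11, a deubiquitinase gene, was at 22.7, 12.7 and 8.65, and Kif17, a kinesin gene, at 8.45, 4.27 and 2.61. Nearest to Hoxa9 were Laptm4b, a lysosomal membrane protein gene at 3.19, 8.81 and 0.989, at a distance of 0.09, the cholesterol synthesis gene Sqle at 6.80, 17.1 and 2.19, at 0.15, and Frmd6 at 4.63, 13.001 and 2.51, at 0.34. Each of these was highest in 4T1-TB and lowest in IRF8-deficient.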

How the data were processed

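Granulocyte progenitors were sequenced in 3 libraries, 1 per group, and groups follow the mouse model given in the labels. The authors deposited RPKM for 24421 symbols per library, and these were used as deposited. Per the submitters' processing notes the tools were TopHat2 2.0.13 and cutadapt 1.2.1, CASAVA 1.8.2, edgeR 3.12.1 and HTSeq 0.6.1, and Picard 1.97, on mm10. The sources used here do not give what each tool did, the annotation or the strandedness. A low level, filter or library size set upstream cannot be changed here.

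From the deposited RPKM, whole reads were recovered for 15158 genes above 0, because each gene had values whose ratios between libraries were those of whole numbers. Implied gene lengths were whole, within 0.02 bases, for 91.6% of 6522 genes. Where the implied length was short of its reference, reads were multiplied by a whole factor; for Cd34 they were doubled to give a whole length. For Sox4, whose implied length matches no reference length, the smallest whole reads were kept. Reads served for depth, exact Poisson intervals of levels, exact binomial (Clopper-Pearson) intervals of ratios, all at 95%, and a floor of 3 reads. At the median length 1 read was worth 0.0077 RPKM (NTB), 0.0155 RPKM (4T1-TB) or 0.0132 RPKM (IRF8-deficient).

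Differences used a pseudocount of 1 and a minimum RPKM of 1 in 1 or more libraries. The 10 pathway lists and 10 cell type lists, like the 9 genes, were chosen with earlier results of these data known. Genes were named by rule: the 9 genes, Irf8, up to 4 compared members of each list with the largest difference, and the 3 most alike genes of each called gene, leaving out predicted genes, pseudogenes, ribosomal proteins and histones. Others (Rn45s, Mpo, Elane, Bmi1, Myb, Bcl2, Kmt2a, Flt3l, Kitl, the HOX, low-level and overlapping genes, Mef2c, Tcf4 and some markers) were named after their values were seen. 1 gene that the rule names, and the counts that rest on it, are not reported here. Alternatives were pseudocounts of 0.1 and 5, 3 other scalings, no filter, a minimum RPKM of 5, a 4-fold call, and a 2-fold call with the further demand that the counting interval exclude 1. In a simulation of 4T1-TB against NTB, reads were recovered exactly for 96.6% of 14797 genes. The simulation took its gene lengths from the same recovery, rounded to whole bases. It therefore does not measure how well the reads behind the deposited values were recovered. Coordinates come from GENCODE M21 on mm10. Calculations were made in Python 3.11.15 with scipy 1.17.1, numpy 2.4.6 and pandas 2.3.3, and plots with matplotlib 3.10.9.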

Additional observations from a re-analysis of the deposited data

How the results depend on the processing

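All 27 differences of the 9 genes (3 comparisons each) kept their direction under the 5 alternatives of pseudocount and scaling. A change of pseudocount leaves the sign of a difference as it was, so only the 3 other scalings put direction to a test. Hoxa10 had 0 reads in IRF8-deficient, so its differences with that library keep their sign under any scaling. The counts of calls moved with the alternatives. Genes lower in 4T1-TB against NTB numbered 3 instead of 1 with a pseudocount of 0.1 and with scaling by summed reads (Cd34, Sox4 and Meis1), 2 without the 20 highest genes (Cd34 and Sox4) and 0 at a 4-fold call. The gene higher in that comparison, Hoxa9, was no longer called with a pseudocount of 5 or at a 4-fold call, a count of 0 each. Genes lower in IRF8-deficient against NTB numbered 1 instead of 4, Cd34, with a pseudocount of 5 and at a 4-fold call. With a pseudocount of 0.1 Flt3 joined them, and at a minimum RPKM of 5 Meis1 was not compared. Calls of low genes thus depend on the pseudocount, whose size is like their level.

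Over all genes, counts higher and lower went to 282 and 354 (4T1-TB against NTB), 1145 and 1071 (IRF8-deficient against NTB) and 1235 and 1084 (IRF8-deficient against 4T1-TB) with a pseudocount of 0.1, to 65 and 21, 526 and 149, and 475 and 311 with 5, and to 47 and 5, 203 and 41, and 178 and 50 at a 4-fold call. With a minimum RPKM of 5 they were 115 and 74 in 4T1-TB against NTB. Without the 20 highest genes they were 724 and 934 in IRF8-deficient against NTB, and 831 and 842 against 4T1-TB, with medians of all genes at -0.19 and -0.06. No paired analysis was possible because each group has 1 library. Variation between mice could not be measured.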
